A study of Mus musculus with 10 samples.

Results

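The *Phactr* family of actin and phosphatase-1 regulators has 4 members, *Phactr1*, *Phactr2*, *Phactr3* and *Phactr4*, among the 24453 genes of the count table. They were selected on a result of these data: *Phactr3* was among the genes with the smallest p of those higher in Fezf2+ cells, and the rest of its family was taken with it. The difference between the cell types is therefore a description and supports nothing: intervals on it cover the counting of reads and not the spread of animals, and calls are listed only beside the share of all genes called. The samples were intratelencephalic projection neurons (IT-PNs) of layer 5 of the right primary motor cortex (M1) of male *Fezf2-Gfp* mice, hemizygous for the transgene of the line (Zfp312-EGFP)CO61GsatMmnc and kept on Swiss Webster. GFP in these mice comes from a transgene under *Fezf2* regulatory elements, so it reports the activity of those elements and not the endogenous transcript. All animals received a fluorescent cholera toxin subunit B tracer (CTB) in the left M1 when 23 to 25 days old, and their cells were sorted at an age of 28 to 32 days. Sorting gave Fezf2+ cells, with GFP and CTB, and Fezf2- cells, with CTB alone, and 1 library of each type came from each of 5 animals. *Fezf2* itself had 1 read in the 10 libraries, in Fezf2+ library 5, so the types are named here as sorted.

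Phactr proteins bind monomeric actin through RPEL repeats and bind protein phosphatase 1 (PP1) through the end of the protein, where they direct the phosphatase to particular substrates. Because free actin binds the same proteins, the state of the actin cytoskeleton can be tied to the PP1 complex. *Phactr1* and *Phactr3* are known as genes of the brain, *Phactr3* also under the name scapinin, and *Phactr4* is known for its role in neural tube closure and enteric nervous system development. The function of *Phactr2* is less well described.

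On GRCm38, which is mm10, all 4 are protein-coding genes in GENCODE. *Phactr1* (ENSMUSG00000054728) is on the plus strand of chromosome 13 from 42680623 to 43138526, and *Phactr2* (ENSMUSG00000062866) on the minus strand of chromosome 10 from 13207717 to 13474412. *Phactr3* (ENSMUSG00000027525) is on the plus strand of chromosome 2 from 178118975 to 178338492, and *Phactr4* (ENSMUSG00000066043) on the minus strand of chromosome 4 from 132355923 to 132422489. The spans range from 66567 bases for *Phactr4* to 457904 for *Phactr1*, while the exons together cover 4960 bases in *Phactr4*, 6407 in *Phactr3*, 9611 in *Phactr1* and 11692 in *Phactr2*. GENCODE lists 5 other genes inside the span of *Phactr1* and 1 inside that of *Phactr4*, none of them in the count table. Reads from these could have been counted on the host gene, since no source says whether the counting used strand.

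The coding end, which meets PP1, is shown here for how far the members share sequence, since reads from near-identical copies cannot be assigned to a gene. The last 90 coding bases of the longest complete coding transcript of each gene, stop codon included, are printed 5′ to 3′ with the 50 bases that are the same in all 4 members in capitals. Each stretch lies in 2 exons, which on GRCm38 fall within chr13:43133930-43135189 (plus strand) for *Phactr1*, chr10:13214258-13224857 (minus strand) for *Phactr2*, chr2:178334054-178335521 (plus strand) for *Phactr3* and chr4:132358269-132360548 (minus strand) for *Phactr4*.
Phactr1: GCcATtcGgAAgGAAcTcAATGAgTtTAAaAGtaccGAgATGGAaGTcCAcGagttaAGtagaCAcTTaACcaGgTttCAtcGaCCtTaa
Phactr2: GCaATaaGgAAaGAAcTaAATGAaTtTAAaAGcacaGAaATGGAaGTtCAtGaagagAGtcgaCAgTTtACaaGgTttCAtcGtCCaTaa
Phactr3: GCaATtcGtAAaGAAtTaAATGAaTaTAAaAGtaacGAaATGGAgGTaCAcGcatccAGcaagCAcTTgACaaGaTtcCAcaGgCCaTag
Phactr4: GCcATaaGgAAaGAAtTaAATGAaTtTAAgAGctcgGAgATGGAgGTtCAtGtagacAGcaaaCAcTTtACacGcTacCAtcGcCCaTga
Between pairs of members, 61 to 71 of the 90 bases were identical, most between *Phactr2* and *Phactr4* (78.9%) and fewest between *Phactr1* and *Phactr4* (67.8%). Over the whole of these coding sequences the longest identical run of any pair was 23 bases, between *Phactr2* and *Phactr3*, and the shortest such maximum was 14 bases. Introns and untranslated regions were not compared.

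Between 107643 and 203379 reads were counted on genes in the Fezf2+ libraries and between 89138 and 217738 in the Fezf2- libraries. Values of up to 3 reads were taken as at or under the floor of detection, which is 13.8 to 33.7 CPM (counts scaled to a common total of gene reads) in a library of this depth. Reads copied by PCR are not independent molecules, so this floor and all intervals below cover counting error only. Together the 4 members had 348 reads, 242 in Fezf2+ and 106 in Fezf2- libraries, and *Phactr3* held 57.8% of them. Of the 40 values, 4 genes in 10 libraries, 12 exceeded 3 reads and 7 were 0.

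*Phactr3*, the member the selection started from, had 52, 119, 18, 5 and 1 reads in the Fezf2+ libraries of animals 1 to 5 and 3, 1, 1, 1 and 0 reads in the Fezf2- libraries. Libraries 1 and 2 of the Fezf2+ type are high, library 5 is as low as the Fezf2- libraries, and the types overlap there. In CPM, Fezf2+ library 2 had 1106 (95% Clopper-Pearson interval 916 to 1323), library 1 had 440 (329 to 577), library 3 had 152 (90.4 to 241) and library 4 had 33.0 (10.7 to 77.0). Fezf2+ library 2 alone held 59.2% of all *Phactr3* reads. The level, as TMM-scaled log2(CPM + 1), was 6.81 ± 2.66 (SD, n = 5) in Fezf2+ and 2.59 ± 1.54 (SD, n = 5) in Fezf2- libraries. It was higher in the Fezf2+ library in 5 of 5 animals, but in animal 5 this was 1 read against 0. Summed over the libraries of a type, 195 reads against 6 gave a ratio of the shares of gene reads of 39.8, with a 95% counting interval of 17.9 to 110. Without animal 2 the ratio was 19.7 (8.08 to 62.4). Within animals, the ratio was 24.6 (7.98 to 123) in animal 1, 98.5 (17.3 to 3925) in animal 2 and 25.7 (4.06 to 1072) in animal 3. In animal 4 it was 6.97, with an interval of 0.780 to 330 that includes equal shares.

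*Phactr1*, which binds actin and PP1 in neurons, was the member with at least 1 read in every library. It had 1, 1, 3, 1 and 3 reads in the Fezf2+ libraries and 5, 2, 3, 2 and 10 reads in the Fezf2- libraries of animals 1 to 5, so 2 of the 10 libraries exceeded 3 reads. Its level was 3.70 ± 0.66 (SD, n = 5) in Fezf2+ and 4.55 ± 0.77 (SD, n = 5) in Fezf2- libraries, and it was lower in the Fezf2+ library in 4 of 5 animals. The types overlap, and the ratio of summed shares was 0.50 with a counting interval of 0.203 to 1.13, which includes equal shares. Without animal 3 it was 0.37 (0.122 to 0.972), which does not.

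*Phactr2* had 0, 4, 9, 0 and 0 reads in the Fezf2+ libraries and 0, 0, 2, 2 and 65 reads in the Fezf2- libraries. Fezf2- library 5 held 79.3% of its reads, with 299 CPM (95% Clopper-Pearson interval 230 to 380), whereas the Fezf2+ library of the same animal had 0 reads, an upper bound of 18.1 CPM. The animals did not move together: the level was higher in the Fezf2+ library in 2, lower in 2 and 0 in both libraries of animal 1. Its level was 2.15 ± 2.97 (SD, n = 5) in Fezf2+ and 3.19 ± 3.51 (SD, n = 5) in Fezf2- libraries, a difference smaller than either SD. The ratio of summed shares was 0.23 (counting interval 0.117 to 0.421), and 4.18 (1.29 to 17.6) without animal 5, so its direction rests on that animal.

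*Phactr4* had 6, 1, 5, 0 and 13 reads in the Fezf2+ libraries and 1, 2, 1, 2 and 3 reads in the Fezf2- libraries. Fezf2+ libraries 1, 3 and 5 exceeded 3 reads, and no Fezf2- library did. Its level was 4.01 ± 2.58 (SD, n = 5) in Fezf2+ and 3.51 ± 0.85 (SD, n = 5) in Fezf2- libraries, with the Fezf2+ library higher in 3 of 5 animals. The ratio of summed shares was 3.40 (counting interval 1.53 to 8.27), and 2.57 (0.893 to 8.35) without animal 5, where the interval includes equal shares, while the types overlap library by library.

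**Figure D1:**
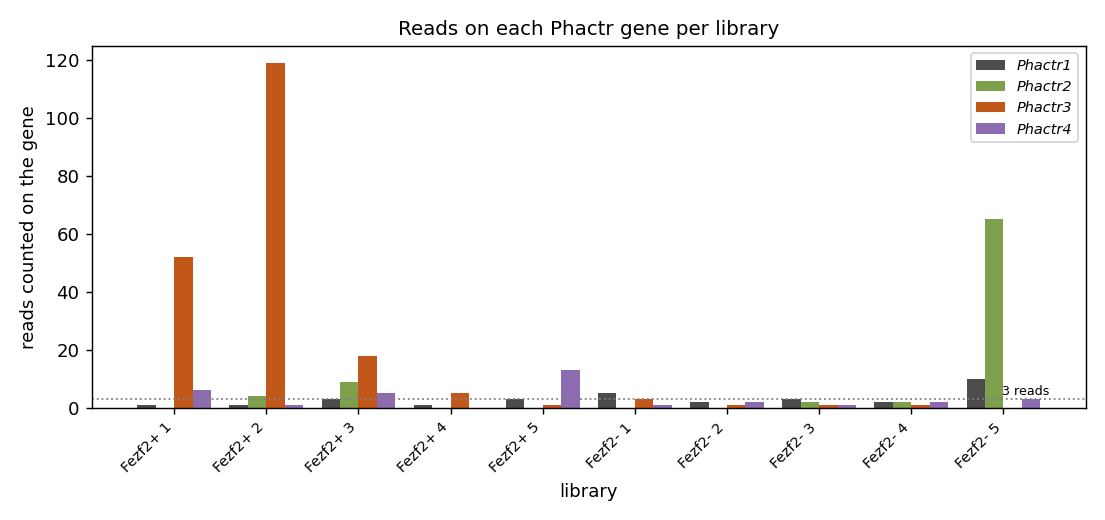
Reads counted on each *Phactr* gene (bars, vertical axis) in each of the 10 libraries (horizontal axis), with a dotted line at 3 reads. The 119 reads of *Phactr3* in Fezf2+ library 2 and the 65 reads of *Phactr2* in Fezf2- library 5 stand above the other libraries of the same gene.

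The plot of reads per library shows which member leads in which library. *Phactr3* held the most reads of the family in Fezf2+ libraries 1 to 4, *Phactr4* in Fezf2+ library 5, *Phactr1* in Fezf2- libraries 1 and 3 and *Phactr2* in Fezf2- library 5. In Fezf2- library 2 *Phactr1* and *Phactr4* tied at 2 reads, and in library 4 *Phactr2* did as well. In Fezf2- libraries 2, 3 and 4 the whole family had 5, 7 and 7 reads.

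**Figure D2:**
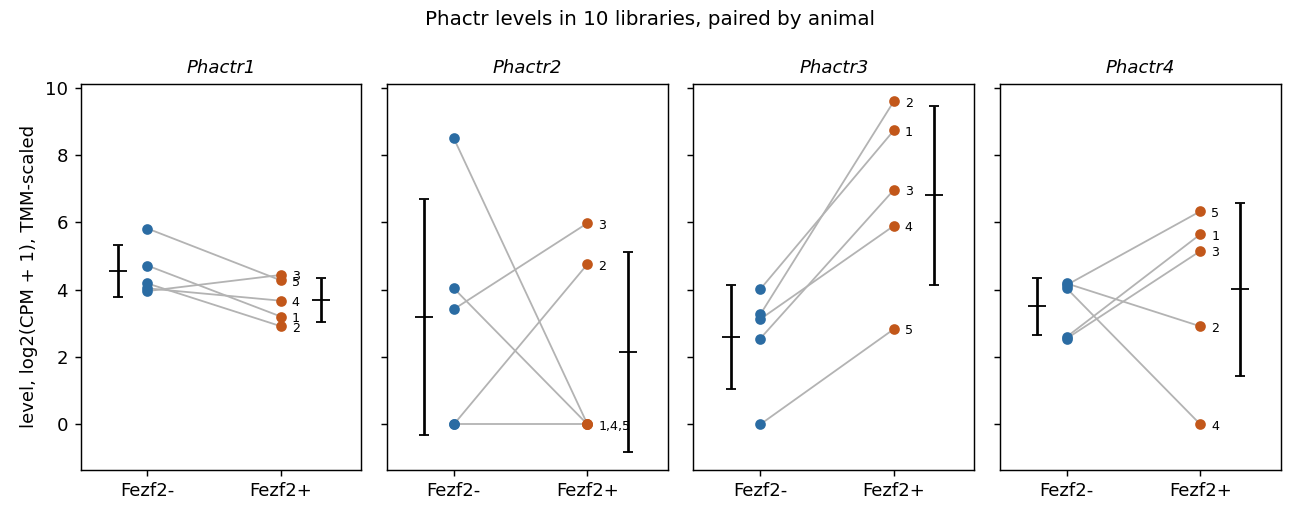
Level of each member, TMM-scaled log2(CPM + 1), in Fezf2- (left) and Fezf2+ (right) libraries, with a line joining both libraries of an animal, animal numbers at the right, and the mean with its SD (n = 5) beside each type. All 5 lines of *Phactr3* go up towards Fezf2+, while those of *Phactr2* and *Phactr4* cross.

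With the animal as a block, the fitted log2 fold change of Fezf2+ over Fezf2- was 4.56 (standard error 1.28) for *Phactr3*, 1.16 (standard error 1.41) for *Phactr4*, -0.29 (standard error 2.56) for *Phactr2* and -0.86 (standard error 1.03) for *Phactr1*. Apart from *Phactr3*, each was smaller than its standard error. The sign for *Phactr2* turned when 1 animal was left out, to 0.67 without animal 4 and 1.38 without animal 5, and was 0.04 with DESeq2. All 4 members passed the filter of at least 10 CPM in at least 2 libraries, which *Phactr3* met in 6 libraries, *Phactr1* in 6, *Phactr4* in 5 and *Phactr2* in 4.

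Of the 4 members, 0 had an adjusted p at or below 0.1 in the blocked edgeR fit (quasi-likelihood test), beside 0% of all 7409 tested genes. That test gave 288 of these genes an unadjusted p under 0.05, a smaller share than no change would give at that cutoff. A count of 0 adjusted calls from it does not show that genes did not differ. Without the block 1 member, *Phactr3*, passed the same threshold, beside 3.77% of the tested genes (279), and DESeq2 with the block also called *Phactr3* alone of the 4, beside 1.32% (98). The contrast is the one the members were selected on, so nothing is read from these counts.

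Levels were compared between members on a scale of length, and the length that applies is in doubt. Gene reads come close to all mapped reads of these libraries or exceed them, and many mapped reads lie in introns. This points to counting over whole gene spans, while the planned scale was that of exons. Where gene reads exceed mapped reads, some reads were counted on more than a single gene, and all CPM values use these totals. Per kilobase of exon and with both libraries of an animal averaged, *Phactr3* had the highest level, 2.66 ± 1.46 (SD, n = 5 animals) on a log2(CPM per kb + 1) scale. *Phactr4* followed at 2.01 ± 0.76, then *Phactr1* at 1.48 ± 0.40 and *Phactr2* at 1.14 ± 0.99 (SD, n = 5 animals each). Each neighbour in that order differed from the next by less than the larger SD of the pair. Of the 6 pairs of members, 1 had the same order in 5 of 5 animals: *Phactr4* was above *Phactr2*, by 0.86 ± 0.80 (SD). An exact permutation test cannot pass 0.05 with 5 animals, so the order is a description, and 3 of the pairs include *Phactr3* and with it the values it was selected on. The order and this count depend on the length used. Per kilobase of gene span *Phactr2* came before *Phactr1*, at 0.18 ± 0.25 and 0.059 ± 0.030 (SD, n = 5 animals each) after *Phactr3* at 0.50 and *Phactr4* at 0.38, and with no length scaling *Phactr1* came before *Phactr4*, while *Phactr3* was first on each scale. That place comes from the Fezf2+ libraries. In Fezf2- libraries *Phactr3* was last on each scale, at 0.99 per kilobase of exon beside 1.76 for *Phactr1*, 1.67 for *Phactr4* and 1.42 for *Phactr2*, and in Fezf2+ libraries it was at 4.34 beside 2.35 for *Phactr4*, 1.20 for *Phactr1* and 0.87 for *Phactr2*. The study describes its libraries as biased to the 3′ end, for which no length scale may be needed.

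The ERCC spike-in, a mix of synthetic RNAs added to each sample, gives the spread of transcripts of the same mean read number over these libraries. *Phactr3*, with 20.1 reads per library on average, had an SD of 3.02 over the 10 libraries on the log2(CPM + 1) scale. The 11 ERCC transcripts within 2-fold of that mean had a median SD of 1.56 (0.57 to 2.97), and 0 of them reached the SD of *Phactr3*. *Phactr2*, at 8.2 reads, had an SD of 3.12 beside a median of 2.90 for 12 transcripts, of which 4 spread as far or farther. *Phactr1* at 3.1 reads and *Phactr4* at 3.4 had SDs of 0.81 and 1.83, below all 13 and all 12 of their ERCC transcripts. CPM values of ERCC transcripts were scaled to the ERCC total of each library, and those of members to its gene reads. ERCC totals ranged from 6251 to 103498 reads per library, a wider range than that of the gene totals. Each lay below the gene total of its library, so a read weighs more on the ERCC scale. This can raise ERCC SDs at low read numbers. The place of *Phactr1* and *Phactr4* below their ERCC transcripts cannot be told apart from this difference of scale. The SDs of the members also hold the differences between animals and between types, on which *Phactr3* was selected, so they are set beside the ERCC values as a description. Without animal 2 the SD of *Phactr3* was 2.79, while its mean fell to 10.1 reads and the 13 ERCC transcripts near that mean had a median SD of 3.02, of which 8 spread as far or farther.

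Across the 10 libraries the genes whose levels were most like a member's were named by Pearson's r, as a description. The points share type, animal and depth, and many of these genes have few reads. For *Phactr3* they were *Rexo4* (r = 0.90), *Cck* (r = 0.88), *Pnpla8*, *Rpgrip1* and *Cln6* (r = 0.87 each). *Cck*, the gene of the neuropeptide cholecystokinin, had 8 reads in all and *Rexo4* 14, whereas *Pnpla8* had 60, of which 56 were in Fezf2+ libraries. For *Phactr1* they were *Fmnl2*, a formin that elongates actin filaments (r = 0.90), *Fbxl17*, *Ubac2*, *Mllt10* and *Abi1*, a subunit of the WAVE complex (r = 0.84). Fezf2- library 5 held between 48.2 and 97.8% of the reads of each of these 5 genes. For *Phactr2* they were *1810026B05Rik* (r = 0.97), *Sag*, *Uhrf1bp1l*, *Hao1* and *Impg2*, and the gene with the most reads among them, *1810026B05Rik*, had 79.3% in Fezf2- library 5. For *Phactr4* they were *Nr6a1* (r = 0.91), *Abtb2*, *Ahcyl2*, *Mob3b* and *Atp8b1*. Between members, r was -0.81 for *Phactr1* and *Phactr3*, and between -0.20 and 0.43 for the other 5 pairs.

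The partners of the family were taken from 4 lists, of PP1 subunits, monomeric actin and its binders, other RPEL proteins with the transcription factor SRF, and the cofilin cycle with Phactr targets. Together they held 76 genes, of which 40 passed the filter and 16 had no read. Of the 40, 0 had an adjusted p at or below 0.1 (edgeR's quasi-likelihood test, animal as a block), 1 had an unadjusted p under 0.05, and DESeq2 with the block called 0. Over all 7409 tested genes these counts were 0, 288 and 98. The median log2 fold change was -0.74 for the lists and -0.16 over all tested genes, with 15 above and 25 below 0 in the lists, and 3388 and 4021 over all.

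Of 39 PP1 subunit genes, 18 were tested and their median log2 fold change was -0.28. *Ppp1cb*, a catalytic subunit, had 228 of its 235 reads in Fezf2+ library 5, and the catalytic subunits *Ppp1ca* and *Ppp1cc* were near or below the floor in most libraries. *Ppp1r12a*, the myosin phosphatase targeting subunit, had 5649 of 5779 reads in Fezf2+ library 5. *Ppp1r1b*, which encodes the PP1 inhibitor DARPP-32, had 372 of 547 reads in Fezf2- library 2, and *Ppp1r7* had 328 of 334 in Fezf2- library 3. In each of these 4 genes 1 library carried between 68.0 and 98.2% of the reads. The fitted log2 fold change of *Ppp1r1b* was -2.87 (standard error 2.66), the same as that of *1700003D09Rik*, so its reads may be shared with that gene.

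Of 14 genes of monomeric actin and its binders, 11 were tested, 9 of them with a log2 fold change below 0 and a median of -1.03. *Actb*, for beta-actin, had 23, 58, 9, 264 and 6 reads in the Fezf2+ libraries and 36, 199, 333, 20 and 363 in the Fezf2- libraries, which overlap. The fitted log2 fold change of *Actb* was -2.05 (standard error 1.80), and that of *Actg1*, for gamma-actin, was -1.36 (standard error 1.61). *Tmsb4x*, for the actin-sequestering thymosin beta-4, had -1.63 (standard error 1.38) and was lower in the Fezf2+ library in 4 of 5 animals. *Pfn2*, for a profilin, had 1.45 (standard error 1.64).

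Of the 12 genes of other RPEL proteins and SRF, 6 were tested, with a median log2 fold change of 0.41. *Mkl1* and *Mkl2*, RPEL coactivators of SRF, had -2.14 (standard error 1.44) and 2.90 (standard error 2.60), with 88.8% of the reads of *Mkl1* in Fezf2- library 3 and 86.9% of those of *Mkl2* in Fezf2+ library 2. *Arhgap32* had 1.67 (standard error 1.62) and *Arhgap12* had 1.09 (standard error 1.52). Of 11 genes of the cofilin cycle and Phactr targets, 5 were tested, with a median of -0.55. *Sptan1*, for the alpha-II spectrin that PHACTR1 and PP1 act on, had 2, 11, 7, 110 and 11 reads in the Fezf2+ libraries and 8, 1, 0, 5 and 1 in the Fezf2- libraries. *Sptan1* had a fitted value of 3.21 (standard error 1.41, adjusted p = 0.998 from edgeR), was higher in the Fezf2+ library in 4 of 5 animals, and was the 1 gene of the lists with an unadjusted p under 0.05. *Ssh2*, a cofilin phosphatase, had 3390 of 3537 reads in Fezf2- library 4, and *Limk2*, a cofilin kinase, had 68.1% of its reads in Fezf2+ library 3. *Rock1* had 22 reads in all.

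**Figure D3:**
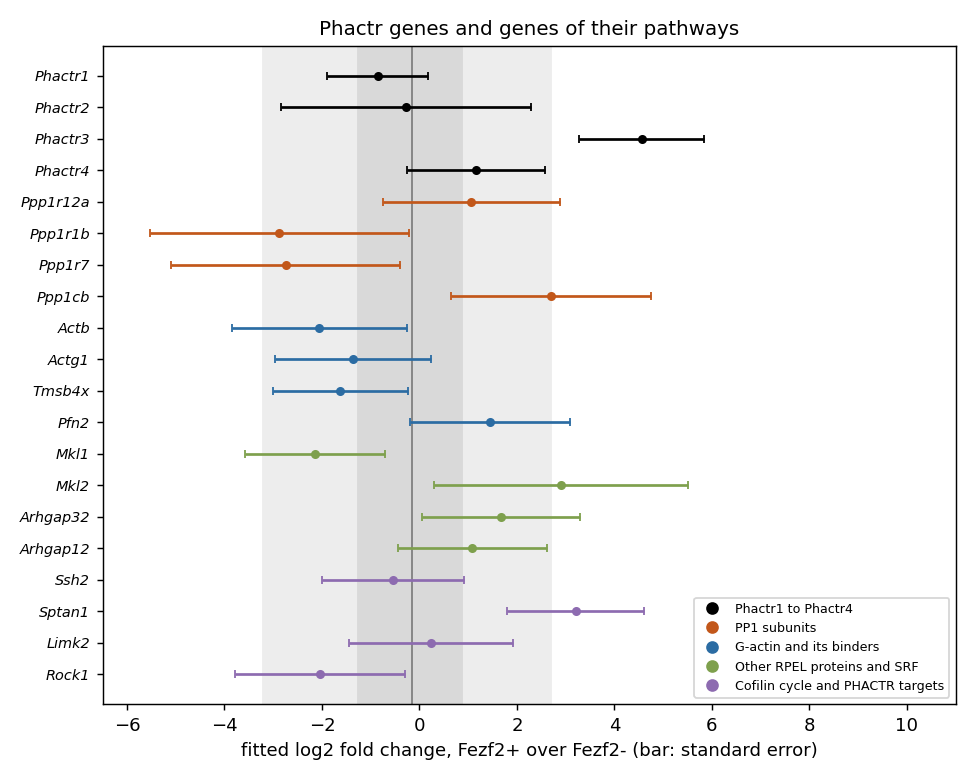
Fitted log2 fold change of Fezf2+ over Fezf2- (horizontal axis) with its standard error for the 4 members and the 16 named genes of the pathway lists. The grey line is the median of all 7409 tested genes (-0.16), the darker band their middle 50% (-1.26 to 0.88) and the lighter band the range from the 5th to the 95th percentile (-3.21 to 2.71). *Phactr3* (4.56), *Sptan1* (3.21) and *Mkl2* (2.90) lie above that range.

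Marker lists were read in the same libraries to check the labelled cells. The 8 genes of excitatory neurons all had reads, and their summed CPM was 601, 437, 246, 26.4 and 88.5 in the Fezf2+ libraries and 101, 112, 3325, 52.0 and 41.3 in the Fezf2- libraries of animals 1 to 5. *Camk2a* had the most, 588 reads, of which 529 were in Fezf2- library 3. Interneuron markers had 5 and 13 reads in the types, with *Slc32a1*, *Vip* and *Pvalb* at 0. Glial markers were also present in libraries of both types: the 7 astrocyte genes (most reads *Slc1a2*, with *Gfap* at 0) had a summed CPM of 745, 7608, 644, 1682 and 462 in the Fezf2+ and 715, 236, 88.9, 3799 and 41.3 in the Fezf2- libraries. Oligodendrocytes, by 5 of the 6 listed genes (most reads *Mbp*), had 686, 3790, 339, 79.2 and 275 in the Fezf2+ and 828, 303, 148, 80.4 and 96.4 in the Fezf2- libraries. Both lists are highest in Fezf2+ library 2, which holds 59.2% of the *Phactr3* reads, and so is the endothelial list (74.3 CPM, 8 reads). The excitatory neuron list, like *Phactr3*, was higher in Fezf2+ libraries 1, 2 and 3 than in 4 and 5. It was highest in Fezf2- library 3, where *Phactr3* had 1 read. The astrocyte list was higher in the Fezf2+ library in 4 of 5 animals and the oligodendrocyte list in 3 of 5, with *Mbp* itself higher in 5 of 5. The part of RNA from any of these cell types in the *Phactr3* values was not tested. Oligodendrocyte precursors had 2040, 2648, 864, 72.6 and 4666 in the Fezf2+ and 1423, 348, 948, 114 and 1121 in the Fezf2- libraries, which overlap, with 819 of the 1008 reads of their leading gene *Vcan* in Fezf2+ library 5, and endothelial markers (most reads *Flt1*) had 25 and 27 reads in the types, with the Fezf2+ library higher in 2 of 5 animals. The astrocyte, oligodendrocyte and precursor sums were each above the excitatory neuron sum in every Fezf2+ library. They were also above it in Fezf2- libraries 1, 2 and 4, and below it in library 3. In Fezf2- library 5 the astrocyte sum was equal to it and the others were above. The lists differ in their genes, so these sums do not give shares of cells. In bulk samples fewer cells of a type and less RNA per cell cannot be told apart.

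Microglia and blood markers moved with the type. All 11 microglia genes had reads, most in *Ctss* with 817, and their summed CPM was 195, 130, 50.8, 52.8 and 118 in the Fezf2+ libraries and 6331, 3579, 4997, 1604 and 3849 in the Fezf2- libraries, with no overlap. The microglia sum was above that of excitatory neurons in every Fezf2- library and in Fezf2+ libraries 4 and 5. The 4 haemoglobin genes had a summed CPM of 872, 102, 16.9, 0 and 0 in the Fezf2+ and 4514, 3298, 273, 284 and 9.19 in the Fezf2- libraries, most in *Hbb-bs* (410 reads), and *Hba-a1* and *Hba-a2* carry the same reads as near-identical copies. The values of *Phactr3* and *Phactr1* in both types stand beside these, as do those of monomeric actin and its binders, of which 9 of 11 tested genes had a log2 fold change below 0, beside 10 of 10 tested microglia genes (median -4.83). The part of microglia or blood RNA in them was not tested.

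**Figure D4:**
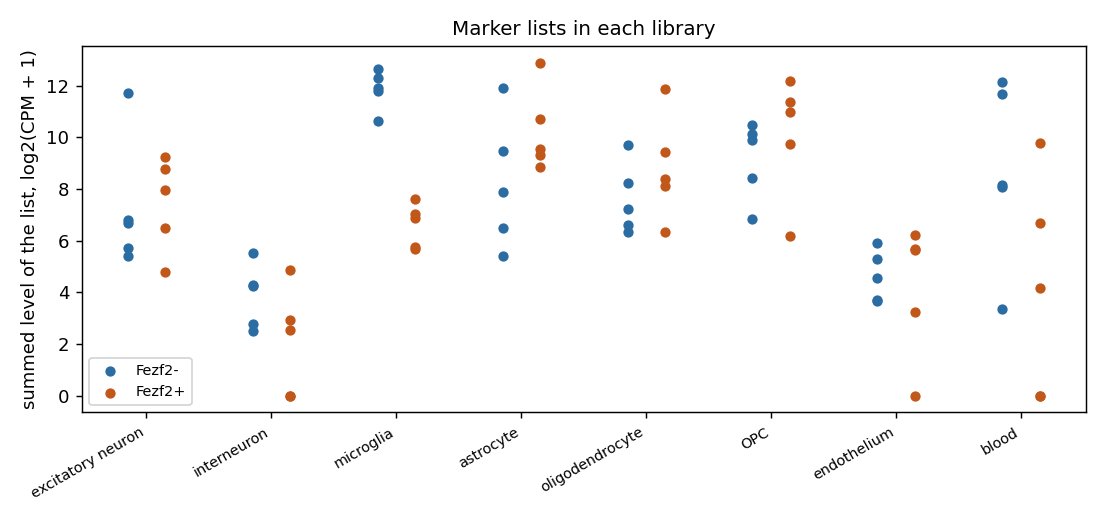
Summed level of each marker list, log2(CPM + 1), in Fezf2- (blue) and Fezf2+ (orange) libraries, 5 points of each. The microglia points of the types do not overlap (50.8 to 195 CPM against 1604 to 6331 CPM), and the points of the other lists do.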

How the data were processed

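After trimming, the authors aligned reads to mm10 using TopHat2 2.1.1, counted them on RefFlat genes and ERCC transcripts with bedtools 2.26.0 and deposited the counts without normalization. The 7409 of 24453 genes that reached 10 CPM in 2 or more libraries were normalized with TMM and compared with edgeR 4.0.16 in R 4.3.3 (quasi-likelihood test, Benjamini-Hochberg, calls at an adjusted p of 0.1 or less), with the animal as a block. The filter, the threshold and the pairing by animal follow the study's methods, whereas the study's test was that of DESeq2. The quasi-likelihood mode had not been set in the plan. A first fit with the installed default (the legacy mode) had been seen before the mode with adjusted deviances, used in earlier work on these data, was taken as the main one, and the legacy mode is given as an alternative. Standard errors come from the fold change and the F statistic. The members and lists were chosen with earlier results of these data known. Both libraries of a number were taken as from 1 animal. The labels give the number, and the study's methods pair the samples by animal. After type means were removed, the deviations of paired libraries correlated at a mean r of 0.029 across genes (-0.027 to 0.097, 5 pairs). Named genes were, per pathway list, the 4 tested genes with the most reads and any with an unadjusted p under 0.05, per member the 5 most alike by r, and per marker list the most abundant gene and genes at 0. For oligodendrocytes 1 of 6 listed genes is left out. Genes given outside that rule (*Ppp1ca*, *Ppp1cc*, *1700003D09Rik*, *Hba-a1*, *Hba-a2*) were chosen after their values were seen. Positions and sequences are from GENCODE. Intervals are 95% Clopper-Pearson, with a floor of 3 reads. The scripts were tested on simulated data with a log2 change of 3, the same spread for all genes and no effect of animal. Genes with most of their reads in 1 library were not simulated. At a spread close to that of these libraries, the blocked edgeR fit found none of the changed genes. DESeq2 called about as many unchanged as changed ones there, so neither count of calls carries much information. Alternatives were DESeq2 1.42.0, no block, other size factors, filters, thresholds, downsampling to 89138 reads and leaving out each animal. The authors' table of fold changes was not used.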

Additional observations from a re-analysis of the deposited data

Results flagged for a closer look

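Among the 5 Fezf2- libraries, library 5 stood apart for *Phactr2*, with 299 CPM where the others had 0 to 11.9 CPM. The gap exceeded Dixon's 95% limit for 5 samples. Of 16 groups checked, each member in each type on the CPM and on the level scale, this was 1, and chance gives about 1 in 20. On the level scale the same library did not exceed the limit.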

How the results depend on the processing

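With the animal as a block, 0 genes and 0 pathway genes were called under each edgeR alternative that kept the block, a fit with little power at this spread. Without the replicate block 279 genes were called, 1 of them in the pathway lists (*Ppp1r12a*), and DESeq2 with the block called 98 genes. In the legacy mode, added after both modes had been run, edgeR with the block also called 0, and without the block it called 638 genes, 5 of them in the pathway lists. Among these 5 were *Ppp1cb*, *Ppp1r12a*, *Ppp1r1b* and *Ppp1r7*, each with between 68.0 and 98.2% of its reads in 1 library. The paired and unpaired counts thus differ, and the unpaired one also depends on the mode. The cause was not tested.

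The log2 fold change of *Phactr3* was between 4.39 and 5.11 over the alternatives and between 3.92 and 5.01 with 1 animal left out. *Phactr1* stayed between -1.25 and -0.73 and *Phactr4* between 0.52 and 1.78 with 1 animal left out, while *Phactr2* went from -2.49 to 1.38. Without the block *Phactr2* was -2.06, and it could not be fitted under the filter of 10 CPM in 5 libraries, which it did not pass.

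The number of member pairs in the same order in every animal was 1. It was 2 per kilobase of gene span, 0 with no length scaling, 0 with a pseudocount of 5, and 1 to 4 with 1 animal left out. The SD of a member less the ERCC median, on unlike scales, was -1.53 for *Phactr1* and -0.97 for *Phactr4* with a pseudocount of 5. With 1 animal left out it ranged from -2.61 to -2.22 for *Phactr1*, -0.68 to 1.61 for *Phactr2*, -0.23 to 2.37 for *Phactr3* and -1.88 to -1.14 for *Phactr4*. Depth limits the members: 28 of the 40 values were at or below 3 reads.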
